A study of Mus musculus with 6 samples.

Results

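Hypoxia sensing and response genes were followed in the outer layer of the embryonic mouse heart, in embryos labelled as Meis1 and Meis2 double knockouts and in controls. The group held 8 genes given by symbol, and all 8 were present among the 14549 genes of the deposited table. The genes were Hif1a and Epas1, which encode the oxygen-regulated HIF-1alpha and HIF-2alpha subunits, Egln1 and Egln3, which encode oxygen-dependent prolyl hydroxylases, and the HIF-responsive genes Car9, Ndrg1, Bnip3 and Ankrd37. Every one of the 8 genes passed the filter on low values. The dKO group held 3 libraries from embryos with floxed alleles of both genes and the Cre driver (Meis1fl/fl;Meis2fl/fl;WT1-Cre), and the control group held 3 libraries from wild-type embryos. The labels do not say whether the wild-type embryos carried floxed alleles or the Cre. All embryos were collected at E16.5, in late gestation. Epicardium and subepicardium were dissected together, and polyadenylated RNA from each pool of 2 hearts of 1 genotype made 1 library. Deletion was driven by WT1-Cre, so cells without a history of that Cre keep both genes in the dKO tissue. The libraries are called dKO 1, 2 and 3 and control 1, 2 and 4, after their titles.

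In well-oxygenated cells, prolyl hydroxylases of the EGLN family modify the HIF alpha subunits, which the VHL ubiquitin ligase then marks for degradation. When oxygen falls, the alpha subunits escape this modification, pair with ARNT and bind hypoxia response elements, whose core is ACGTG or GCGTG. HIF is controlled mainly at the protein level, and protein was not measured here. The developing heart is a relatively oxygen-poor tissue, and HIF activity is known in its myocardium and epicardium. HIF targets include genes of glycolysis, acid handling, mitochondrial turnover and blood vessel growth.

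Recovered totals ran from 13146322 to 20635676 reads per library. Meis2 fell in the dKO pools (41.3 ± 5.59 in dKO and 78.3 ± 13.0 in control, SD, n = 3 each; limma adjusted p = 0.00352), and Meis1 did not pass (65.9 ± 7.82 and 77.8 ± 24.8, limma adjusted p = 0.521). The pools differed in the cell types they represented. Of 20 cardiomyocyte markers 17 were higher in dKO, with a summed level of 32280 to 34891 in the dKO pools and 6157 to 13752 in the control pools. Of 18 epicardial and mesothelial markers 17 were lower in dKO, with sums of 567 to 709 in dKO and 2962 to 4455 in control. Of 12 fibroblast markers 9 were lower, with sums of 12001 to 15582 in dKO and 28702 to 32440 in control. Of 12 endothelial markers 1 was lower, and their sums overlapped (1521 to 1699 in dKO, 1258 to 1943 in control). No marker of these 4 lists was at 0 reads in any library. Macrophage markers were lower for 4 of 11 (sums of 207 to 297 in dKO, 426 to 599 in control). Of 9 erythroid and 3 Schwann markers 0 passed with limma and 0 with edgeR, and at an unadjusted limma p under 0.05 there were 1 and 2. Their summed levels were 1399 to 2082 and 29.7 to 32.4 in dKO, and 1125 to 2271 and 33.7 to 38.9 in control. In bulk tissue, fewer cells of a type and less RNA per cell cannot be told apart. Mitochondrially encoded genes held 11.3% to 19.9% of the signal in dKO and 5.99% to 10.4% in control pools, and Ddx3y exceeded Xist in 2 of 3 dKO and 1 of 3 control pools. Fits with a cardiomyocyte marker score or with Ddx3y above Xist as covariate are given below. The part of these differences in the results was not otherwise tested.

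Of the 8 hypoxia genes, 5 changed in the dKO pools and not in 1 direction. Bnip3 (2.08-fold), Epas1 (1.62-fold) and Hif1a (1.37-fold) rose, while Car9 fell to 24.4% and Ndrg1 to 54.5% of the control mean. Egln1, Egln3 and Ankrd37 did not pass. Values are normalised read counts (reads per 1000000 of a scaled library size), log2 changes are dKO minus control on the scale of log2(value + 1), and a call means a limma adjusted p under 0.05. Across all genes 22.0% were called, 9.81% as higher and 12.2% as lower. The groups did not overlap for 6 of the 8 genes, against 40.4% of all genes, with 3 of the 8 higher (19.3% of all genes) and 3 lower (21.1%). EdgeR on the recovered reads, which called 20.3% of all genes, gave the same 5 calls in the same directions. The median log2 change of all genes was 0.002.

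**Figure D1:**
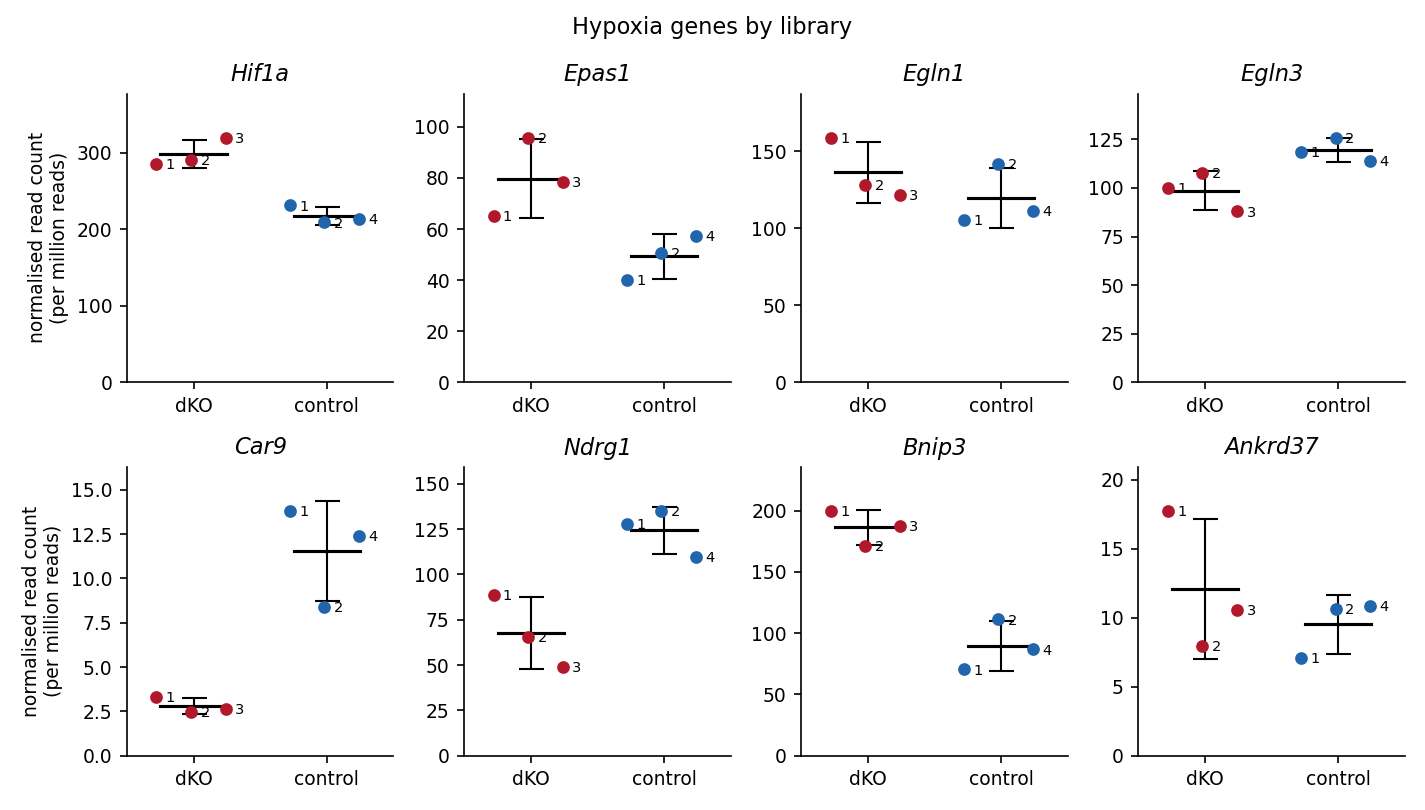
Normalised read count (vertical axis, from 0) of the 8 hypoxia genes in each library, with dKO in red and control in blue; numbers are library numbers, bars are the mean and the whiskers the SD (n = 3 per group). Car9, Ndrg1 and Egln3 lie lower and Bnip3, Epas1 and Hif1a higher in every dKO library than in any control library, while the groups overlap for Egln1 and Ankrd37.

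Both alpha subunit genes of the group, Hif1a and Epas1, rose. Hif1a (ENSMUSG00000021109, GRCm38 chromosome 12, 73901375 to 73947530) had 286, 291 and 320 normalised read counts in dKO 1, 2 and 3, against 231, 209 and 213 in control 1, 2 and 4. The lowest dKO library stood above the highest control library, and the spread within each group was small (299 ± 18.5 in dKO and 218 ± 11.8 in control, SD, n = 3 each). Its log2 change was 0.45, with a standard error (SE) of 0.11 and a limma adjusted p of 0.0176. That call was lost when control 2, control 4, dKO 2 or dKO 3 was left out (limma adjusted p = 0.0528, 0.0523, 0.0529 and 0.0891). Exons of Hif1a share 8.11% of their bases with other genes, among them the antisense Gm15283, which averaged 2.54 in dKO and 0.643 in control pools.

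Epas1 (ENSMUSG00000024140, chromosome 17, 86753700 to 86833410) encodes the alpha subunit best known from endothelial and other vascular cells. It had 65.1, 95.8 and 78.3 in dKO 1, 2 and 3, against 40.0, 50.7 and 57.2 in control 1, 2 and 4. The groups did not overlap, but dKO 1 lay close to control 4, and the library numbered 1 was the lowest of its group in both genotypes. Epas1 thus had a log2 change of 0.68 (SE 0.18, limma adjusted p = 0.0208). It did not pass without dKO 2 (limma adjusted p = 0.0873) or dKO 3 (limma adjusted p = 0.0631). Endothelial markers as a list had a median log2 change of 0.12, and their summed levels overlapped between the genotypes. The part of endothelial cells in the Epas1 change was not tested.

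Of the other measured HIF subunit genes, 1 fell. This was Hif3a, whose product includes inhibitory splice forms and which had 85.0, 118 and 102 normalised read counts in dKO 1, 2 and 3, against 222, 139 and 141 in control 1, 2 and 4. Control 1 stood well above the other control pools, and the log2 change was -0.69 (SE 0.19, limma adjusted p = 0.0288). The call of Hif3a was lost without control 1 (log2 change -0.47, limma adjusted p = 0.0503), dKO 1 (-0.57, 0.0928) or dKO 3 (-0.70, 0.0771). Arnt, which encodes a beta subunit that pairs with HIF alpha subunits, averaged 73.1 ± 4.23 in dKO and 95.2 ± 16.7 in control pools and did not pass (limma adjusted p = 0.0965). Arnt2 averaged 16.8 ± 2.57 and 23.3 ± 4.79 (limma adjusted p = 0.143). Of the 5 subunit genes, 2 rose and 1 fell, with a median log2 change of -0.36. Arnt and Arnt2 were named after their values were seen.

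Neither prolyl hydroxylase gene passed the test. Egln1 (ENSMUSG00000031987, chromosome 8, 124908587 to 124949324) encodes PHD2, regarded as the main oxygen sensor. It had 159, 128 and 122 in dKO 1, 2 and 3, against 106, 142 and 111 in control 1, 2 and 4. The groups overlapped, and control 2 exceeded 2 of the 3 dKO pools. For Egln1 the log2 change was 0.19, with a 95% interval of -0.15 to 0.53 (limma adjusted p = 0.413).

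Egln3 (ENSMUSG00000035105, chromosome 12, 54178981 to 54203860) encodes PHD3, itself a HIF-induced gene. It had 99.9, 108 and 87.9 in dKO 1, 2 and 3, against 118, 126 and 114 in control 1, 2 and 4. Each dKO library was below each control library, but the nearest, dKO 2 at 108 and control 4 at 114, were close. The log2 change of Egln3 was -0.28, with a 95% interval of -0.55 to -0.01 before adjustment (limma adjusted p = 0.132). No other gene shares exonic bases with Egln1 or Egln3.

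Of 13 measured genes of oxygen sensing and HIF degradation, 0 rose and 1 fell with limma, as with edgeR; at an unadjusted limma p under 0.05, 1 was higher and 2 lower. Of the 13, 11 had a positive log2 change, and the median was 0.26. The 1 that fell was Vhl, the substrate-binding subunit of the ligase that recognises hydroxylated HIF alpha. Vhl had 31.4, 28.1 and 32.8 in dKO 1, 2 and 3, against 53.6, 46.8 and 44.2 in control 1, 2 and 4. These ranges were well apart, and the log2 change was -0.63 (SE 0.14, limma adjusted p = 0.0104). Hif1an, which encodes the asparagine hydroxylase FIH, averaged 56.8 ± 3.08 in dKO and 47.4 ± 4.94 in control pools and did not pass (limma adjusted p = 0.191; named after its values were seen). Of 9 cofactor and modulator genes, 1 rose, Cited1, a co-regulator that binds the CBP and p300 coactivators. Cited1 had 17.3, 16.2 and 11.5 in dKO 1, 2 and 3, against 1.57, 5.14 and 4.73 in control 1, 2 and 4 (log2 change 1.81, SE 0.34, limma adjusted p = 0.00461). Without control 1, 2 of the cofactor genes rose, Cited1 and Ncoa1.

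**Figure D2:**
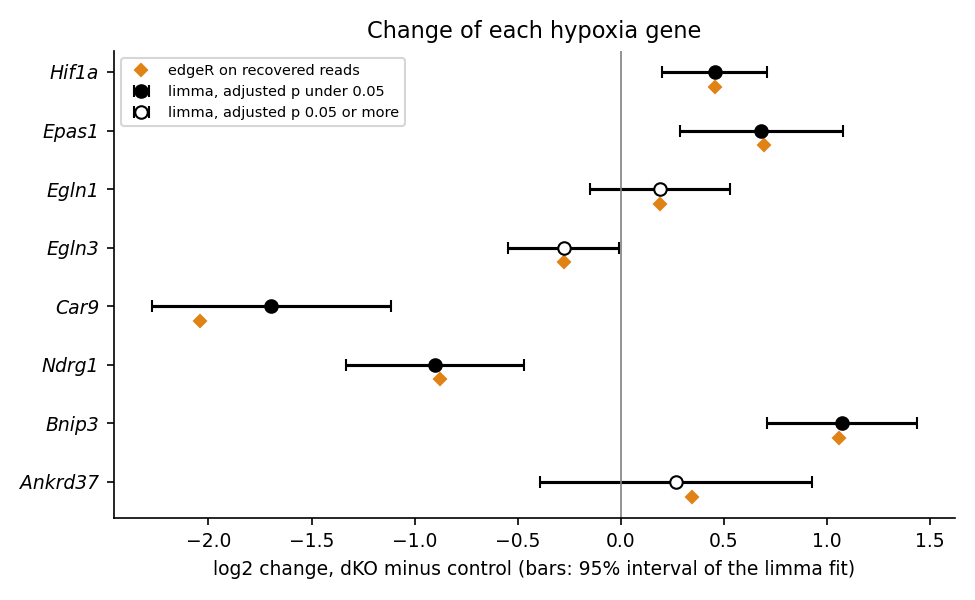
Log2 change, dKO minus control, of the 8 hypoxia genes (horizontal axis) from limma, with the 95% interval of the fit as bars; filled circles passed an adjusted p of 0.05, open circles did not, and orange diamonds are the edgeR estimates on recovered reads. The values run from -1.69 for Car9 to 1.07 for Bnip3.

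The HIF-responsive genes of the group moved in opposite directions. Bnip3 (ENSMUSG00000078566, chromosome 7, 138890836 to 138909519) encodes an outer mitochondrial membrane protein that recruits autophagosomes to mitochondria. It had 200, 171 and 188 in dKO 1, 2 and 3, against 70.4, 111 and 86.8 in control 1, 2 and 4. The lowest dKO library exceeded the highest control library by a wide margin, and control 1 was the lowest of all. Bnip3 had a log2 change of 1.07 (SE 0.16, limma adjusted p = 0.00143), and it passed in each fit without 1 library (0.91 to 1.24). Of the exonic bases of Bnip3, 22.3% lie opposite Gm45507, which was not analysed here, and the counting is not stated to use strand.

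Car9 (ENSMUSG00000028463, chromosome 4, 43506966 to 43513729) encodes a membrane carbonic anhydrase that helps export acid and is widely used as a hypoxia marker. It was among the least abundant of the 8 genes, with 3.33, 2.48 and 2.66 in dKO 1, 2 and 3, against 13.8, 8.39 and 12.4 in control 1, 2 and 4. These values rest on 53, 33 and 54 reads in the dKO pools and 223, 131 and 195 reads in the control pools. All dKO pools were far below all control pools. On the log2 scale Car9 changed by -1.69 (SE 0.26, limma adjusted p = 0.00153), and by -2.04 with edgeR, which adds less to low values. In the fits without 1 library it ran from -1.89 to -1.56 and passed each time. The gene Gm12454 on the other strand shares 9.29% of its exonic bases and averaged 3.84 in dKO and 4.34 in control pools.

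Ndrg1 (ENSMUSG00000005125, chromosome 15, 66929318 to 66969640) encodes a cytoplasmic protein induced by hypoxia and by differentiation. It had 88.7, 65.6 and 49.1 in dKO 1, 2 and 3, against 128, 135 and 110 in control 1, 2 and 4. The groups did not overlap, and the dKO pools varied more (a coefficient of variation of 29.3% in dKO and 10.4% in control). Ndrg1 changed by -0.90 on the log2 scale (SE 0.19, limma adjusted p = 0.00872), which ran from -1.11 to -0.69 in the fits without 1 library, passing in each. Exons of Ndrg1 share 8.43% of their bases with Gm17035 and Gm2895.

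Ankrd37 (ENSMUSG00000050914, chromosome 8, 45996902 to 46005707) encodes a small ankyrin repeat protein and is a known HIF-1 target. It had 17.7, 7.95 and 10.6 in dKO 1, 2 and 3, against 7.07, 10.6 and 10.9 in control 1, 2 and 4. The groups overlapped, and the dKO mean rested on dKO 1. The log2 change of Ankrd37 was 0.27, with a 95% interval of -0.39 to 0.93 (limma adjusted p = 0.566), and without dKO 1 it was -0.03. Of its exonic bases, 26.4% overlap the oppositely oriented Lrp2bp and Ufsp2, and Ufsp2 averaged 27.8 in dKO and 37.8 in control pools.

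Promoters of the genes with the clearest opposite changes are shown for the HIF core motif. Each window holds 250 bases before and 50 after the transcription start from RefSeq (GRCm38.p6), printed 5′ to 3′ on the strand of the gene. Capitals mark each ACGTG or GCGTG on either strand (CACGT or CACGC where the motif lies on the opposite strand, with overlapping matches merged).
Bnip3, which rose, chr7:138909457-138909756, minus strand: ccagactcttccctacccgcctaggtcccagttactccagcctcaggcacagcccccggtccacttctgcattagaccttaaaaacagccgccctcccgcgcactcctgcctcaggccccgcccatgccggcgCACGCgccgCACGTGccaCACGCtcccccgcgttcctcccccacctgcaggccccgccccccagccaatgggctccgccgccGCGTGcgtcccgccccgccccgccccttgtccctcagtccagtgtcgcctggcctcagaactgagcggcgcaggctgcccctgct
Car9, which fell, chr4:43506776-43507075, plus strand: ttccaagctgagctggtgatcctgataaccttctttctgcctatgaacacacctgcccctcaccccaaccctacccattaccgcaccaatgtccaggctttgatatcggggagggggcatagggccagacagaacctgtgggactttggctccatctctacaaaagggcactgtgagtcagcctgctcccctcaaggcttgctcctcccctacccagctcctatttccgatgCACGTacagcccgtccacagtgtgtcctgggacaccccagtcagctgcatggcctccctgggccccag
The Bnip3 window held 2 matches of ACGTG, which overlap as the palindrome CACGTG beginning 108 bases before the start, and 3 of GCGTG. The Car9 window held 1 match, an ACGTG on the opposite strand beginning 18 bases before the start. Promoter windows were found for 6 of the 8 genes (Hif1a, Egln1, Egln3, Car9, Bnip3 and Ankrd37), and all 6 held an ACGTG. For Hif1a and Egln3, the bases just after the RefSeq start were not found in a GENCODE transcript of the gene. Of all 32851 windows in the table, 19.6% held ACGTG, 32.4% held GCGTG and 43.8% held either. Those windows were not matched to the 6 in their share of G and C, and the difference was not tested. The share of G and C was 71.7% in the Bnip3 window and 58.3% in the Car9 window. A match is a description of these letters and does not show binding.

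Ratios within a library do not depend on how libraries are scaled. The smallest p that an exact two-sided permutation test of 3 against 3 libraries can give is 0.1, so none of the 4 ratios computed could pass. The Bnip3/Car9 ratio was 60.0, 69.1 and 70.7 in dKO 1, 2 and 3, against 5.10, 13.2 and 6.99 in control 1, 2 and 4, a mean log2 difference of 3.09 (exact permutation p = 0.1, adjusted p = 0.133). These ranges were far apart. Every dKO pool was above every control pool for Bnip3 and below every control pool for Car9. Their ratio therefore had to separate the genotypes and reach the smallest p, and it is not a result separate from those changes. Bnip3 was also set against its paralogue Bnip3l, which encodes the related mitophagy receptor NIX and averaged 144 ± 4.66 in dKO and 173 ± 13.2 in control pools. The Bnip3/Bnip3l ratio was 1.35, 1.24 and 1.29 in dKO 1, 2 and 3, against 0.376, 0.653 and 0.538 in control 1, 2 and 4 (mean log2 difference 1.34, exact permutation p = 0.1, adjusted p = 0.133). It stood above 1 in every dKO library and below 1 in every control library. Bnip3l was lower in every dKO pool than in any control pool, so the Bnip3/Bnip3l ratio also had to separate the genotypes.

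The Egln3/Egln1 ratio was 0.629, 0.843 and 0.722 in dKO 1, 2 and 3, against 1.12, 0.888 and 1.03 in control 1, 2 and 4 (mean log2 difference -0.47, exact permutation p = 0.1, adjusted p = 0.133). The groups did not overlap, though dKO 2 and control 2 were close. For the alpha subunits, the Epas1/Hif1a ratio was 0.228, 0.329 and 0.245 in dKO 1, 2 and 3, against 0.173, 0.243 and 0.268 in control 1, 2 and 4. These overlapped (mean log2 difference 0.24, exact permutation p = 0.5). That difference was 0.049 without control 1, 0.076 without dKO 2 and 0.36 without control 4.

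**Figure D3:**
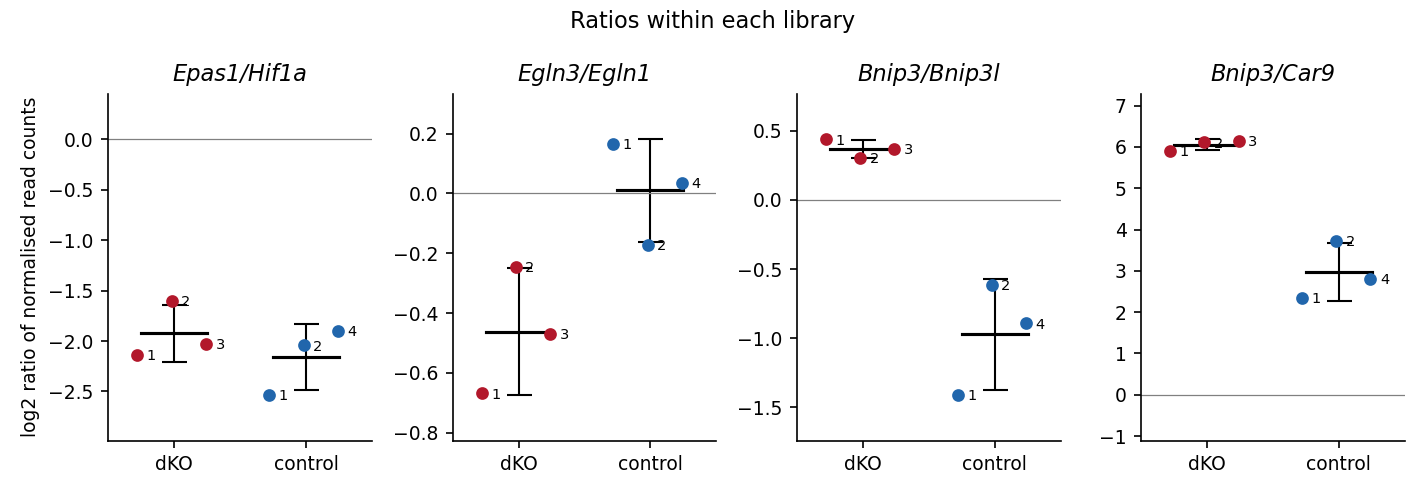
Log2 ratio of the normalised read counts of gene pairs within each library (vertical axis), dKO in red and control in blue, with library numbers, the mean as a bar and the SD as whiskers (n = 3 per group). The Bnip3/Bnip3l and Bnip3/Car9 ratios of the dKO pools lie above those of the control pools, with mean log2 differences of 1.34 and 3.09.

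Per kilobase of annotated exon, the order of the levels differed between the genotypes. In the dKO pools Bnip3 was the most abundant (82.2 per kilobase), followed by Hif1a (50.7), Egln1 (37.9), Egln3 (37.0), Epas1 (14.3), Ndrg1 (10.3), Ankrd37 (7.86) and Car9 (1.22). In the control pools the order of levels per kilobase was Egln3 (44.9), Bnip3 (39.5), Hif1a (37.0), Egln1 (33.2), Ndrg1 (18.8), Epas1 (8.82), Ankrd37 (6.19) and Car9 (5.01). In dKO, libraries of Egln1 and Egln3 overlapped, as did those of Epas1 and Ndrg1 and those of Ndrg1 and Ankrd37. In control, neighbouring genes from Egln3 down to Egln1 overlapped, and so did Ankrd37 and Car9. Which transcripts of each gene were present was not measured, so the lengths are those of all annotated exons.

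Known HIF targets outside glycolysis included genes of both directions. Of 40 measured genes on this list, which includes the hydroxylase and responsive genes above, 11 rose, 7 fell and 22 did not pass, with a median log2 change of 0.08. Among those that fell was Lox, which cross-links collagen and elastin, with 167, 198 and 193 in dKO 1, 2 and 3, against 1028, 753 and 799 in control 1, 2 and 4 (log2 change -2.19, limma adjusted p = 1.21e-05). P4ha1, a subunit of the collagen prolyl hydroxylase, fell to 186, 180 and 173 in dKO 1, 2 and 3, against 369, 329 and 347 in control 1, 2 and 4 (log2 change -0.95, limma adjusted p = 0.000329). Stc2, a secreted glycoprotein gene, fell by 1.40 on the log2 scale (16.9 ± 2.01 in dKO and 46.5 ± 7.53 in control). Vegfa, the principal angiogenic growth factor, rose to 247, 210 and 172 in dKO 1, 2 and 3, against 86.2, 104 and 117 in control 1, 2 and 4 (log2 change 1.02, limma adjusted p = 0.00177). The number that rose was 7 without dKO 1, dKO 2 or dKO 3.

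HIF targets of glycolysis moved more nearly as a whole: 13 of 16 rose and 0 fell with limma, as with edgeR, and the median log2 change was 0.85. The same 13 rose in each fit without 1 library, and at an unadjusted limma p under 0.05 0 were lower. Of all genes, 9.81% were called higher. When the library number was added as a block, 8 of the 16 glycolysis genes rose. Pfkp, a phosphofructokinase gene, averaged 345 ± 53.6 in dKO and 124 ± 34.5 in control pools (log2 change 1.50). The hexokinase gene Hk1 averaged 307 ± 49.5 and 119 ± 35.2 (1.39), Pgk1 averaged 1461 ± 44.6 and 673 ± 166 (1.15) and Aldoa averaged 821 ± 78.3 and 396 ± 87.6 (1.07). The 3 that did not pass were Eno2 (log2 change -0.75, passing as lower without control 4), Slc2a1 (0.21) and Pgam1 (0.14), named after their values were seen. Pgk1 and Aldoa have near-identical gene copies. How reads were shared between a gene and its copies was not checked here, for these or the other glycolysis genes. Beside these rises, the summed level of cardiomyocyte markers was higher in each dKO pool than in any control pool, and beside the falls of Lox and P4ha1 that of fibroblast markers was lower in each dKO pool. With the mean log2 level of the cardiomyocyte markers as a covariate, 0 of the 16 glycolysis genes passed. In that fit Lox still passed as lower and P4ha1 did not (limma adjusted p = 0.00816 and 0.147). That level separated the genotypes, so the fit cannot tell genotype from cardiomyocyte marker level. The part of the fibroblast markers was not tested.

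Of 19 mitophagy genes, 6 rose, Bnip3 among them, 2 fell and 11 did not pass, with a median log2 change of 0.05. Nipsnap2, which encodes a mitochondrial protein that binds autophagy receptors, averaged 231 ± 17.2 in dKO and 119 ± 24.4 in control pools (log2 change 0.98). Map1lc3a, which encodes an ATG8-family protein, rose by 0.76 on the log2 scale and Phb2, an inner membrane mitophagy receptor gene, by 0.46. Map1lc3a did not pass without control 2 or dKO 1, nor Phb2 without control 1, dKO 1, dKO 2 or dKO 3. Gabarapl1, also of the ATG8 family, fell to 54.5, 49.2 and 51.8 in dKO 1, 2 and 3, against 149, 123 and 110 in control 1, 2 and 4 (log2 change -1.27, limma adjusted p = 0.000184). Another gene shares 28.3% of the exonic bases of Gabarapl1. The other that fell was Gabarap of the same family (log2 change -0.43; named after its values were seen). Leaving out control 1, dKO 1 or dKO 3 left 3, 2 and 3 genes that rose. Only Gabarapl1 fell in the 5 fits that left out control 1, control 2, dKO 1, dKO 2 or dKO 3.

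The paralogues of Car9 and Ndrg1 did not all change as these genes did. Of 8 measured carbonic anhydrase genes 3 fell and 1 rose. Besides Car9, the cytosolic Car13 fell to 0.839, 2.48 and 2.02 in dKO 1, 2 and 3, against 19.3, 23.5 and 22.0 in control 1, 2 and 4 (log2 change -3.07, limma adjusted p = 6.87e-05). Car8, whose product lacks enzyme activity, averaged 6.20 ± 0.698 in dKO and 13.1 ± 2.95 in control pools (-0.96), a call lost without control 2, control 4 or dKO 2 (limma adjusted p = 0.0519, 0.0604 and 0.0591). The membrane-bound Car14 rose, at 33.1 ± 0.764 in dKO and 18.8 ± 4.78 in control pools (0.81), and did not pass without dKO 3 (limma adjusted p = 0.0567). Aph1a shares 17.5% of the exonic bases of Car14. In the NDRG family Ndrg1 fell, while Ndrg2 rose (293 ± 33.3 in dKO and 161 ± 30.6 in control, log2 change 0.87) and so did Ndrg4 (233 ± 38.7 and 107 ± 34.5, 1.16). Ndrg3 averaged 40.0 ± 5.59 and 40.9 ± 2.44 and did not pass (limma adjusted p = 0.879; named after its values were seen).

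**Figure D4:**
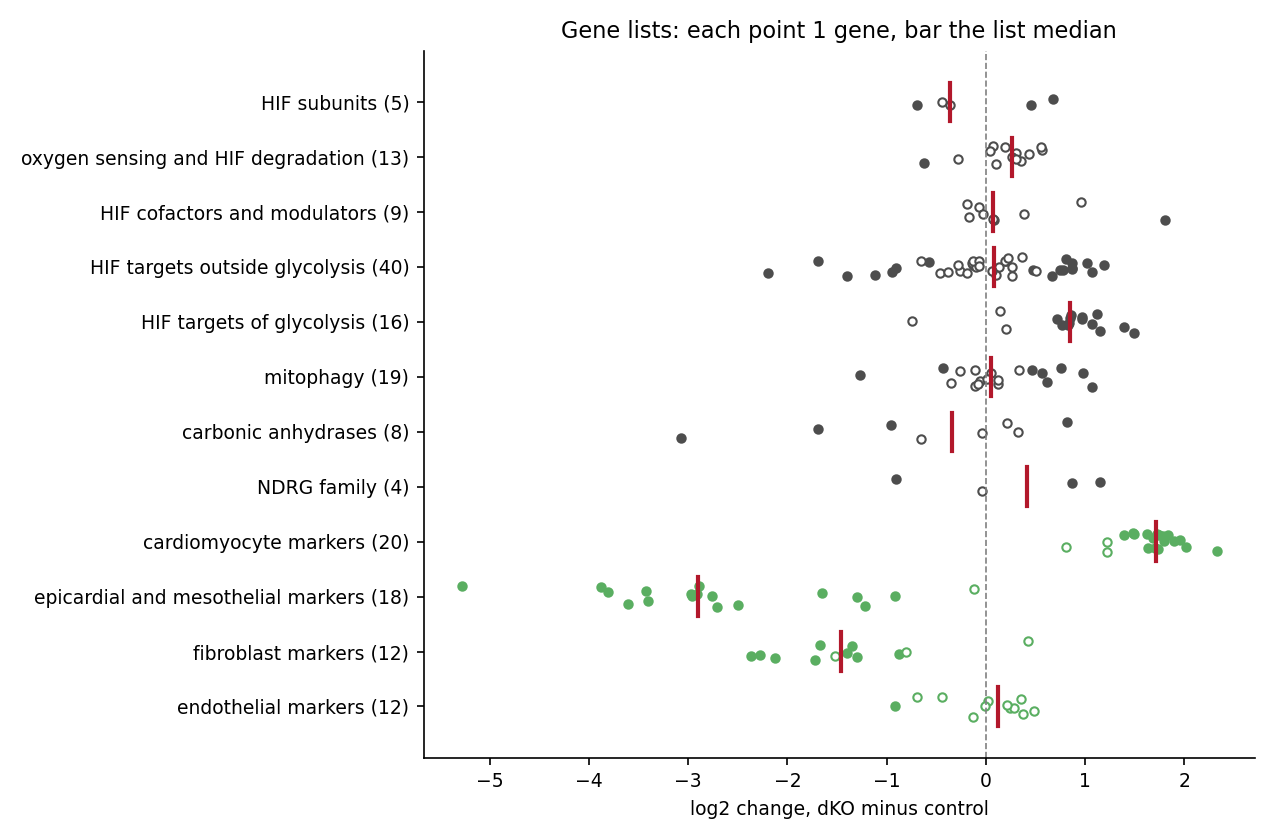
Log2 change, dKO minus control (horizontal axis), of every measured gene in the hypoxia-related lists (grey) and in 4 cell type marker lists (green), with the number measured in brackets; filled points passed a limma adjusted p of 0.05, red bars are list medians and the dashed line is the median of all genes. HIF targets of glycolysis have a median of 0.85 and HIF targets outside glycolysis spread to both sides, from -2.19 to 1.19.

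The genes whose profiles over the 6 libraries were nearest to each hypoxia gene were sought among 10917 genes with a mean of at least 5, leaving out the 8 genes themselves and genes that are unnamed or carry only a provisional clone or model name. Nearness was the mean absolute difference of log2(value + 1), centred on each gene's own mean, and is a description with no test. For Hif1a they were Vps37b (a mean difference of 0.012) and Rnf14 (0.030), and for Epas1 they were Clpb (0.054) and Rasal2 (0.062). For Bnip3 they were Lrrc20 (0.064) and Sntb1 (0.067). For Car9 they were Amigo2 (0.088) and the small proteoglycan gene Lum (0.11), and for Ndrg1 they were E2f5 (0.083) and Nr2f2 (0.090). Egln1 was nearest to Tmem218 (0.032) and Znhit6 (0.035), and Egln3 to Mdm4 (0.035) and Dmtf1 (0.042). Ankrd37 was nearest to Pdlim3 (0.076) and Irf2bp1 (0.084), and Pdlim3 lies 77.4 kilobases from Ankrd37 on chromosome 8. In all, 44 measured genes lay within 200 kilobases of 1 of the 8 genes, of which 6 were higher and 3 lower in dKO (20.5%, against 22.0% of all genes).

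The calls of the 8 genes differed in how far they held under other settings. With the mean log2 level of the cardiomyocyte markers as a covariate, 0 of the 8 genes passed with limma, and 62 genes of the whole table were called higher and 246 lower. This score was 8.999 to 9.32 in dKO and 6.69 to 7.87 in control pools, so it separated the genotypes. A fit with this score therefore cannot tell genotype from cardiomyocyte marker level, and calls lost in it do not measure how firm they are. In that fit Bnip3 had a log2 change of 0.39 (limma adjusted p = 0.622), Car9 of -1.28 (0.391), Ndrg1 of -1.01 (0.330), Epas1 of 0.27 (0.829) and Hif1a of 0.66 (0.261). Of the 19 alternative settings, the other 18 kept the calls of Bnip3 and Car9. Ndrg1 passed in 17, Epas1 in 13 and Hif1a in 12 of the 19, and Egln1, Egln3 and Ankrd37 passed in 0 of the limma, edgeR and DESeq2 fits.

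**Figure D5:**
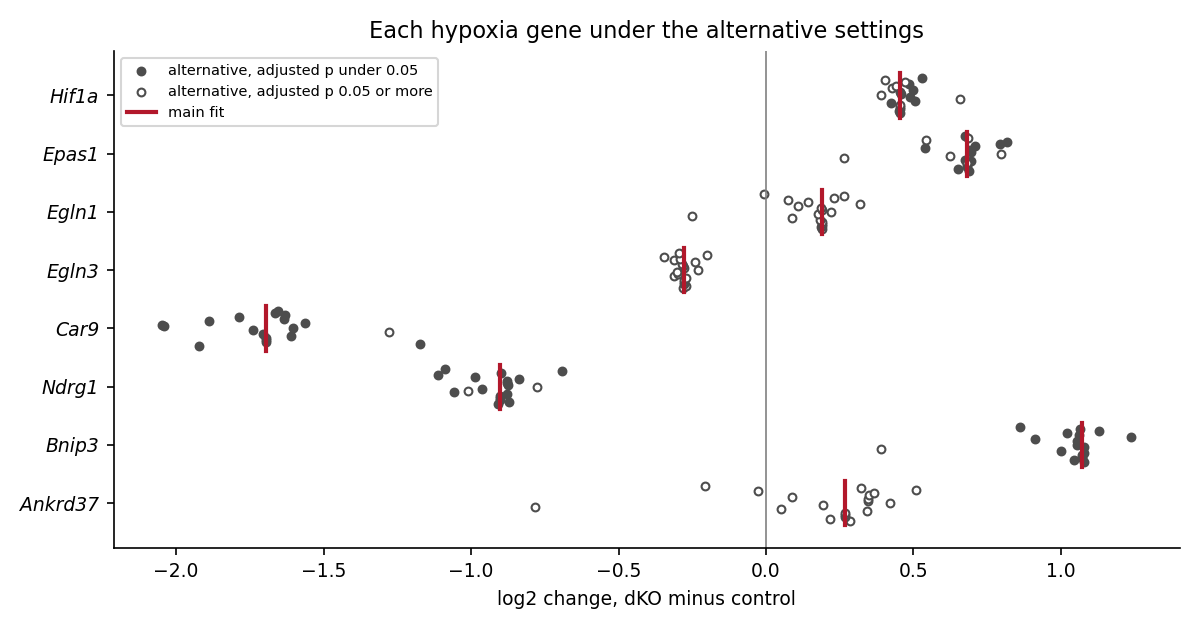
Log2 change, dKO minus control (horizontal axis), of each hypoxia gene under the 19 alternative settings (points, filled where the adjusted p was under 0.05) and in the fit reported above (red bar). The points of Bnip3, Car9, Ndrg1, Hif1a, Epas1 and Egln3 stay on 1 side of 0, and those of Egln1 and Ankrd37 lie on both sides.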

How the data were processed

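Per the submitters' processing notes, reads were trimmed with cutadapt and quantified with RSEM 1.3.1 on GRCm38; these notes name no annotation release, scaling or gene filter. In the deposited table each gene has a normalised signal in each library. All 87294 values (100%) came out as whole reads plus 0.5, within 0.01 reads, per 1000000 of a scaled library size; edgeR on these reads called 2956 genes, and the factors matched recomputed TMM factors. RNA was 40 ng per pool, and the kit is not stated to keep strand.

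A minimum of 1 in 3 libraries was required, and all 14549 genes met it. Groups were compared with limma 3.58.1 (R 4.3.3; moderated variances with a trend, no covariate, residual df 4) on log2(value + 1), two-sided, Benjamini-Hochberg over all genes, threshold 0.05. EdgeR 4.0.16 and DESeq2 1.42.0 on recovered reads, other pseudocounts, filters, scalings, weights, covariates and left-out libraries were alternatives. The fits were tested on simulated data. Ratios used scipy 1.17.1. Positions, exon lengths and overlaps came from GENCODE M21 (14530 IDs found).

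The 8 genes and the lists were chosen with earlier results of these data known. Named genes were these 8, up to 4 further passing genes per list by smallest p, and the nearest profiles. The replicates are pools of 2 hearts, so the spread between single hearts was not measured.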

Additional observations from a re-analysis of the deposited data

How the results depend on the processing

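Among the 8 hypoxia genes, the sign changed for Egln1 (log2 change -0.25 with the cardiomyocyte score as covariate, -0.0078 without number 1 of both groups) and Ankrd37 (-0.78 and -0.21 in the same fits, -0.026 to 0.51 in fits without 1 library). With that covariate 62 genes of all were higher and 246 lower, and 0 of the 8 were higher and 0 lower; the lists gave 0 and 0 for HIF subunits, glycolysis, mitophagy, the NDRG family, cofactors and oxygen sensing, 0 and 2 for other HIF targets and 0 and 1 for carbonic anhydrases, and Hif3a (0.33), Car14 (-0.079), Ndrg4 (-0.15) and Meis1 (0.88) changed sign. Meis1 was -0.32 to 0.045 in fits without 1 library and 0.13 without number 1 of both groups. The cause was not tested.

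Titles share numbers 1 and 2 across the genotypes, and nothing says that they pair the pools; deviations of same-numbered pools correlated at -0.23 and -0.26. Control 4 and dKO 3 have no same-numbered partner, so with a replicate block only the pools numbered 1 and 2 inform the change. With this block, which leaves 1 residual degree of freedom, 580 genes were higher and 780 lower, and 1 of the 8 hypoxia genes was higher and 1 lower. The lists then gave 0 and 0 for HIF subunits, 0 lower for oxygen sensing, 8 higher for glycolysis, 7 higher for other HIF targets, 2 higher and 1 lower for mitophagy, 0 higher for carbonic anhydrases and 0 lower for the NDRG family.

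With no variance trend 1 hypoxia gene was higher, the subunits gave 0 and 0, other HIF targets 6 higher, mitophagy 3 and 1 and cofactors 2. A covariate for Ddx3y above Xist in the pool gave 1 and 0 for the subunits, 7 higher for other HIF targets and 3 and 1 for mitophagy. The labels do not give the sex of the embryos. Without number 1 of both groups 0 subunits were lower, 2 cofactors higher, and mitophagy gave 2 and 1. Cofactors were 2 higher with quantile normalization and with DESeq2.

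In fits without 1 library, 1 to 3 hypoxia genes were higher (1 without dKO 2 and without dKO 3), 898 to 1262 genes of all were higher (898 without dKO 3, 910 without dKO 2), 0 to 2 subunits higher and 0 to 1 lower, 7 to 11 other HIF targets higher, 2 to 4 mitophagy genes higher and 1 to 2 lower, 1 to 2 cofactors higher, 0 to 1 carbonic anhydrases higher and 0 to 1 glycolysis genes lower. The 4 ratios kept their direction in the settings run, though the Epas1/Hif1a difference ran from 0.049 to 0.36 in fits without 1 library. Of the 8 hypoxia genes, Car9 had the fewest reads in the dKO pools (33 to 54) and is limited most by depth there. Outside the 8 genes, Car13 averaged 1.78 in the dKO pools, below the 2.82 of Car9.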
